A study of Mus musculus with 18 samples.

Results

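The comparison described here follows the distal colon of Il10KO mice at week 8 and at week 6 of age. Of the 18 libraries of the series, 6 belong to it: 3 Il10KO mice at week 8 and 3 Il10KO mice at week 6, chosen by the genotype and age in their labels. All 6 mice carried the Il10 knockout on the BALB/c background and no treatment is labelled. The other libraries were 3 BALB/c wild-type mice at week 6 and 3 Il10KO mice each at weeks 10, 12 and 14. Every mouse was sampled once, at 1 age. The labels give no wild-type mice older than week 6, so growth and disease cannot be told apart in any difference between weeks 8 and 6.

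Interleukin 10 dampens the activity of macrophages and T cells, and colitis driven by the gut bacteria arises in mice that lack it. In this colitis T helper 1 cells release interferon gamma, which acts on cells through its receptor. Among its target genes are those that encode guanylate-binding proteins and immunity-related GTPases, the chemokines that recruit cells bearing CXCR3, and the machinery that presents antigen on major histocompatibility complex (MHC) molecules. Epithelial cells of the colon respond to such signals and to bacterial products through NF-kB, among others with enzymes that make nitric oxide and hydrogen peroxide.

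Values are CPM, that is estimated counts scaled to the effective size of each library. They are compared between libraries for 1 gene and not between genes, since longer genes collect more counts. Changes are log2 fold changes of week 8 over week 6 with a standard error (SE), estimated by fitting the 18 libraries together in edgeR, with n = 3 mice per group. A gene was called when its p, adjusted by Benjamini-Hochberg over 16300 tested genes, was below 0.05. Values of 3 libraries are given in the order of replicates 1, 2 and 3. The 6 libraries held 26495521 to 30476552 estimated counts. Il10 was at 0 estimated counts in all 15 Il10KO libraries and at 0 to 3 in the wild type, too low at this depth to check the genotype of a single mouse. All 11 epithelial markers were detected at both ages, with a summed level of 14149 to 16849 TPM, the authors' measure per transcript length, at week 6 and 14984 to 22614 TPM at week 8.

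The 3 mice at week 8 were unlike each other. In log2 CPM over all tested genes, replicate 1 of week 8 correlated at 0.9788 to 0.9815 with the week 6 libraries but only at 0.9565 and 0.9624 with replicates 2 and 3 of its own age. The week 6 libraries correlated with each other at 0.9836 to 0.9858. The mice came from cages A, B and F at week 6 and B, C and D at week 8, so that replicate 2 of week 6 and replicate 1 of week 8 shared cage B. RNA integrity numbers were 8.8, 9.0 and 8.9 at week 6 and 9.1, 8.4 and 9.3 at week 8. Mitochondrially encoded genes took 6.55% to 7.88% of counts at week 6 and 6.41%, 3.15% and 4.95% at week 8.

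The lipocalin values separated the 2 ages in every mouse. They were 4.72, 2.27 and 2.31 ng/g at week 6 and 102, 136 and 107 ng/g at week 8, with means of 3.10 ± 1.40 and 115 ± 18.1 ng/g (SD, n = 3). An exact two-sided permutation test gave p = 0.1, the smallest that 3 against 3 allows. The labels do not say in which material lipocalin was measured. The gene that encodes lipocalin 2, Lcn2, was at 1.87, 0.506 and 0.752 CPM at week 6 and 1.21, 4.13 and 2.07 CPM at week 8. These ranges overlapped, and the change of 1.24 ± 0.97 (SE) was not called by edgeR (adjusted p = 0.818). At week 10 Lcn2 stood at 113, 55.2 and 30.9 CPM, above every week 8 library.

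**Figure D1:**
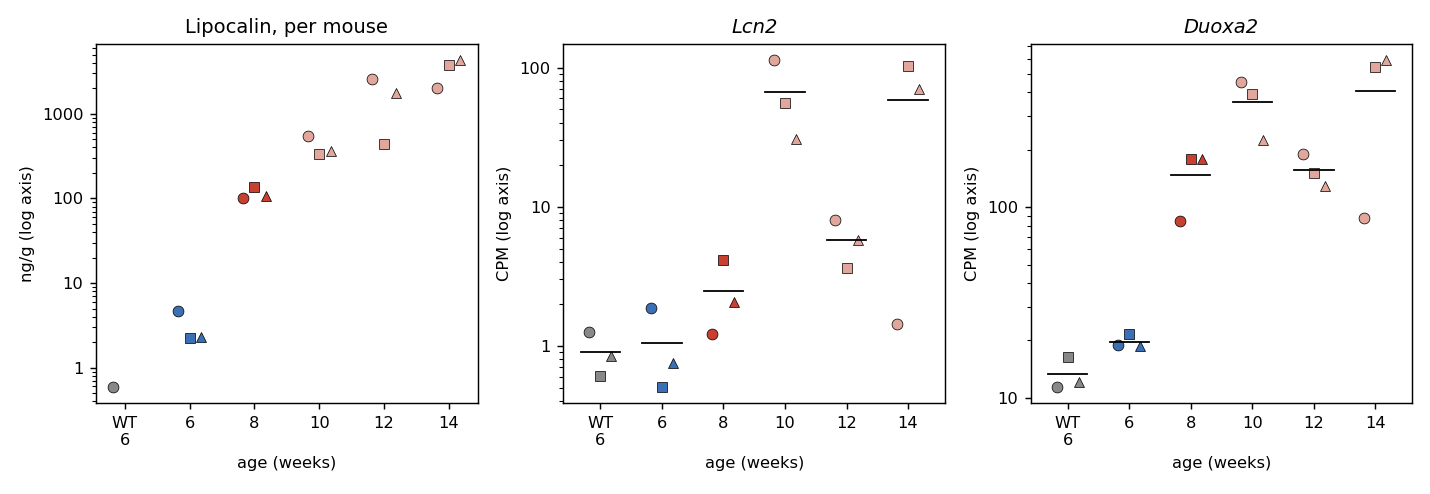
Lipocalin in ng/g (left) and CPM of Lcn2 (middle) and of Duoxa2, a maturation factor of a peroxide-producing enzyme (right), by age in weeks on log axes, with 1 point per mouse and bars at the mean of 3 for the genes; the labels give lipocalin for 1 wild-type mouse. Lipocalin at week 8 lay between 102 and 136 ng/g in all 3 mice, while Lcn2 at week 8 overlapped week 6 and Duoxa2 did not.

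Between weeks 6 and 8, 11 genes rose and none fell by edgeR's quasi-likelihood test, or 0.0675% of genes tested for the rise. Called genes fell into a few roles: nitric oxide and tryptophan enzymes (Nos2, Ido1), feedback regulators of NF-kB (Nfkbiz, Zc3h12a), surface proteins of the epithelium (Clca4b, Steap4, Btnl2), class I MHC genes (H2-Q6, Nlrc5) and metabolic enzymes (Pfkfb3, Gda). At an unadjusted p below 0.05, 768 genes were higher (4.71% of those tested) and 378 lower (2.32%), and DESeq2 called 201 higher and 32 lower. The lowest adjusted p of a lower gene was 0.0749 by edgeR. In all 11 genes the 3 week 8 libraries lay above the 3 week 6 libraries, as they did in 11.1% of all genes, while 12.8% of genes had all week 8 libraries below. All 11 also lay above the 3 wild-type libraries at week 8, as did 15.8% of all genes.

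The called genes are spread over several chromosomes, with bounds from GENCODE M21 on GRCm38 that take in exons and introns. On the forward strand are Nos2 at chr11:78920787-78960254, Steap4 at chr5:7960457-7982213, Btnl2 at chr17:34354822-34369495, H2-Q6 at chr17:35424850-35430055 and Nlrc5 at chr8:94434356-94527272. On the reverse strand are Nfkbiz at chr16:55811375-55838899, Zc3h12a at chr4:125118423-125127840, Ido1 at chr8:24584136-24597009, Clca4b at chr3:144910921-144932529, Pfkfb3 at chr2:11471433-11554077 and Gda at chr19:21391307-21473445.

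**Figure D2:**
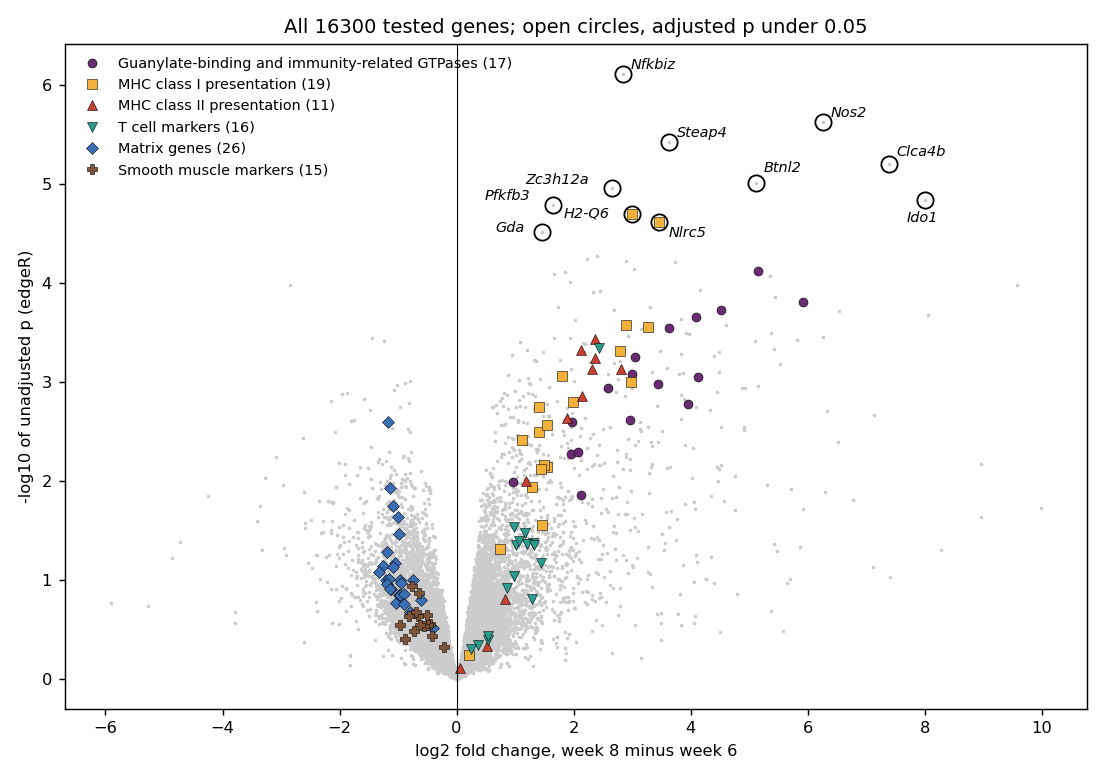
All 16300 tested genes by log2 fold change of week 8 over week 6 (horizontal axis) and −log10 of the unadjusted p of edgeR (vertical axis), with 6 gene lists coloured. Open circles mark the 11 called genes, all to the right of 0, while matrix and smooth muscle genes lie to the left of 0 without a call.

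The calls rested on the number of libraries and on which entered the model. Leaving out replicate 1 of week 8 gave 144 higher (0.882% of genes tested there) and 20 lower (0.123%) with all 11 kept, and leaving out the 3 week 14 libraries gave 122 higher (0.754% of genes tested there) and 12 lower (0.0742%), again with all 11. Leaving out any 1 library of week 6 or replicate 2 of week 8 left no call, and leaving out replicate 3 of week 8 left 1. The fit with cage as a factor used the 15 Il10KO libraries alone. It called no gene, although all 11 kept a positive change (1.29 to 5.93). Without cage as a factor, those 15 libraries already left only 1 of the 11 called. Replicate 3 of week 8 was the only mouse of cage D. Wherever cage is a factor, here and below, it could not inform the change. Divided by the summed epithelial markers of the same library, all 11 again showed no overlap, with log2 ratios of 1.12 to 7.40 between the means. The share of all genes without overlap in this ratio was not computed, so this count has no background.

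**Figure D3:**
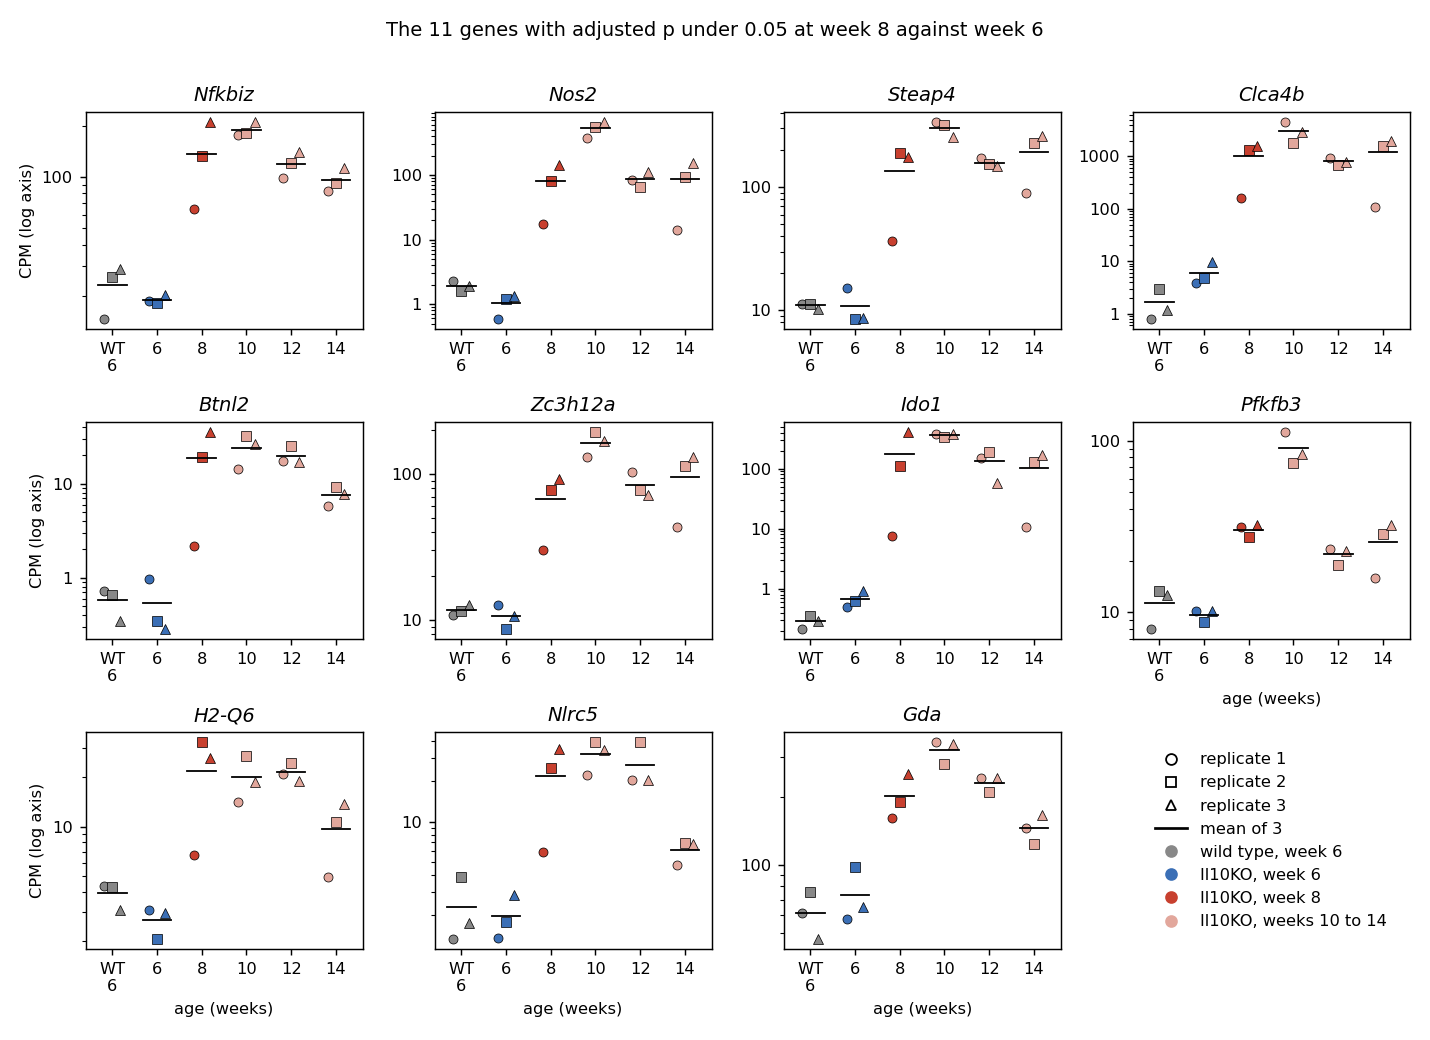
CPM of the 11 called genes in every library on log axes, by age in weeks, with wild type at week 6 in grey, Il10KO at week 6 in blue, at week 8 in red and later ages in pale red, and bars at the mean of 3. In each panel the 3 week 8 points lie above the 3 week 6 points, and replicate 1 of week 8 (circle) is the lowest of its age in 10 of 11 panels.

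Among the enzymes, Nos2, the inducible nitric oxide synthase, was at 0.581, 1.20 and 1.32 CPM at week 6 and 17.2, 80.8 and 141 CPM at week 8. The week 8 range began far above the week 6 range, yet its own mice spread widely. Nos2 rose by 6.26 ± 0.86 (edgeR adjusted p = 0.0194). Ido1 encodes indoleamine 2,3-dioxygenase, which opens the kynurenine pathway of tryptophan breakdown and is a classical target of interferon gamma. It was at 0.489, 0.632 and 0.908 CPM at week 6 and 7.68, 111 and 406 CPM at week 8, and rose by 8.01 ± 1.29 (edgeR adjusted p = 0.0334). No called gene changed by more, and the week 8 mice differed from each other most plainly in it. In the mean, Nos2-201 went from 0.158 to 20.9 TPM and the coding transcript Nos2-203 from 0.259 to 5.8 TPM. Ido1-201 went from 0.672 to 171 TPM, while Ido1-202 was at 0.0679 and 0.533 TPM.

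The next pair regulates NF-kB signalling. Nfkbiz encodes IkB-zeta, a nuclear regulator that NF-kB induces and that directs a second wave of its targets. It was at 18.6, 17.99 and 20.0 CPM at week 6 and 64.6, 133.6 and 211 CPM at week 8, and rose by 2.85 ± 0.36 with the smallest adjusted p of all genes (0.0127, edgeR). Zc3h12a encodes regnase-1, a ribonuclease that destroys cytokine transcripts. Its values were 12.7, 8.60 and 10.7 CPM at week 6 and 30.4, 77.5 and 93.2 CPM at week 8, a rise of 2.65 ± 0.42 (edgeR adjusted p = 0.0298). Of the 18 genes of NF-kB regulation and feedback, these were the only 2 called, and 9 were higher and none lower at an unadjusted p below 0.05. The list's median change was 0.46, against 0.03 over all genes. Tnfaip3, which encodes the inhibitor A20, was at 41.9, 40.2 and 46.3 CPM at week 6 and 69.1, 83.5 and 98.4 CPM at week 8, and Birc3, an inhibitor of cell death, at 46.3, 51.3 and 55.7 and then 82.7, 107 and 91.7 CPM. Neither pair of ranges overlapped and neither change was called (0.97 ± 0.27 and 0.87 ± 0.23, edgeR adjusted p = 0.229 and 0.203).

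Of the surface proteins, Clca4b, a member of the calcium-activated chloride channel regulator family of the epithelium, had the highest level per length among the called genes at week 8 (473 TPM in the mean, from 3.16 TPM). Its values were 3.89, 4.84 and 9.55 CPM at week 6 and 158, 1345 and 1579.9 CPM at week 8. It rose by 7.40 ± 1.11 (edgeR adjusted p = 0.0254). The family did not move as 1. Of 8 tested members, 4 were higher at an unadjusted p below 0.05 (4.71% of all genes). All week 8 libraries lay below week 6 in 2 members (12.8% of all genes). Clca4a, a close neighbour on chromosome 3, was at 94.5, 177 and 167 CPM and then 316, 303 and 324 CPM (1.11 ± 0.35, edgeR adjusted p = 0.356), and Clca1, a goblet cell protein, at 4746, 4776 and 3590.1 and then 2049, 552 and 1815 CPM (−1.57 ± 0.95, adjusted p = 0.787). Clca4a and Clca4b are similar in sequence, so the split of reads between them is uncertain.

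Steap4, a metalloreductase that reduces iron and copper at membranes, was at 15.2, 8.47 and 8.74 CPM at week 6 and 36.5, 190.1 and 176 CPM at week 8. It rose by 3.64 ± 0.52 (edgeR adjusted p = 0.0207). Among 22 genes of metal reduction and transport no other was called, and the list's median change was 0.01. That sign was not stable, since 15 of 21 alternatives turned it negative, scaling to library size alone among them. Btnl2, a butyrophilin-like protein that resembles co-regulatory ligands of T cells, was at 0.979, 0.348 and 0.282 CPM at week 6 and 2.16, 19.2 and 35.3 CPM at week 8. It rose by 5.12 ± 0.80 (edgeR adjusted p = 0.0298). In the other butyrophilin-like genes, 4 were higher and 1 lower at an unadjusted p below 0.05, among them Btnl4 at 15.3, 11.9 and 18.4 CPM and then 17.8, 52.5 and 52.5 CPM (1.43 ± 0.35, edgeR adjusted p = 0.162). The 9 genes of this list had a median change of 1.79.

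The 2 metabolic enzymes had the smallest changes of the called genes. Pfkfb3 makes fructose 2,6-bisphosphate, the activator of glycolysis. It was at 10.2, 8.72 and 10.2 CPM at week 6 and 31.5, 27.4 and 32.2 CPM at week 8, with the 3 week 8 mice close together, and rose by 1.65 ± 0.27 (edgeR adjusted p = 0.0334). Hk2, a hexokinase, was at 77.3, 65.1 and 56.1 CPM and then 218, 125 and 285 CPM. Egln3, a prolyl hydroxylase that hypoxia induces, was at 72.1, 54.8 and 50.2 and then 211, 159 and 192 CPM. Neither was called (1.66 ± 0.31 and 1.67 ± 0.37, edgeR adjusted p = 0.0695 and 0.114). Of 29 genes of hypoxia and glycolysis, 6 were higher at an unadjusted p below 0.05 and none lower, with a median change of 0.36. Gda, the guanine deaminase of purine breakdown, was at 57.4, 97.1 and 64.6 CPM at week 6 and 161, 189 and 253 CPM at week 8 and rose by 1.46 ± 0.25 (edgeR adjusted p = 0.0456).

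The transcripts of Pfkfb3 shared its rise unequally: of 21 annotated transcripts, Pfkfb3-206 went from 1.47 ± 0.87 to 5.68 ± 1.17 TPM and Pfkfb3-214 from 1.07 ± 0.75 to 2.25 ± 0.78 TPM (SD, n = 3). For Gda, Gda-201 went from 18.4 ± 4.39 to 45.7 ± 8.03 TPM and Gda-202 from 3.11 ± 1.85 to 12.97 ± 1.82 TPM. In Zc3h12a the coding transcript Zc3h12a-201 went from 5.87 ± 1.51 to 33.8 ± 14.2 TPM and the retained-intron transcript Zc3h12a-202 from 1.30 ± 1.25 to 5.77 ± 1.92 TPM. Transcript levels were estimated from reads that transcripts share and were not tested.

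The last pair of called genes belongs to antigen presentation. Nlrc5, the transactivator of class I MHC genes, was at 1.35, 1.77 and 2.85 CPM at week 6 and 5.96, 25.1 and 34.97 CPM at week 8, and rose by 3.47 ± 0.58 (edgeR adjusted p = 0.0397). H2-Q6, a non-classical class I gene, was at 3.12, 2.05 and 2.98 CPM and then 6.76, 32.7 and 26.1 CPM, and rose by 3.00 ± 0.50 (edgeR adjusted p = 0.0366). H2-Q6 is nearly identical to its neighbours of the Q region, H2-Q7 among them, so its own share of their reads is uncertain. All 19 tested class I genes had a positive change, and the median change was 1.54. Of them, 18 had an unadjusted p below 0.05 (4.71% of all genes) and 15 showed no overlap (11.1%). The exception at the unadjusted threshold was Erap1, which trims peptides, at 106, 124 and 112 CPM and then 113, 85.7 and 194 CPM (0.21 ± 0.36, edgeR adjusted p = 0.901). Tap1, a subunit of the peptide transporter, was at 28.4, 34.7 and 48.0 CPM at week 6 and 71.8, 291 and 466 CPM at week 8, and H2-Q7 at 4.80, 5.50 and 7.02 and then 13.6, 65.9 and 87.4 CPM. Both kept the ages apart in every library and missed the call (2.90 ± 0.62 and 3.27 ± 0.70, edgeR adjusted p = 0.111 for each).

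Class II presentation had a larger median change, 2.12 over 11 genes, and no call. Of these genes, 8 were higher at an unadjusted p below 0.05 (4.71% of all genes) and 7 showed no overlap (11.1%). Ciita, the master regulator of class II genes, was at 15.3, 9.45 and 15.4 CPM at week 6 and 18.1, 83.9 and 105 CPM at week 8 (2.36 ± 0.52, edgeR adjusted p = 0.114). Cd74, the invariant chain, was at 854, 597 and 911 CPM and then 1060.2, 3858 and 5356 CPM (2.12 ± 0.48, adjusted p = 0.122). In both genes replicate 1 of week 8 stood just above the highest week 6 mouse and the other two stood several-fold higher. Without replicate 1 of week 8, 7 of the 11 class II genes and 12 of the 19 class I genes were called higher. The share over all genes tested there was 0.882%. With cage as a factor the medians were 0.70 for class II and 0.63 for class I.

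The GTPases known as interferon gamma targets had a median change of 3.05, against 0.03 over all genes. Of the 47 lists only the CXCR3 chemokine axis (3.63 over 4 tested genes) and the neutrophil-attracting chemokines (4.34 over 5) had a higher median. All 17 tested guanylate-binding and immunity-related GTPases were higher at an unadjusted p below 0.05 and all 17 showed no overlap, against backgrounds of 4.71% and 11.1%. None was called by edgeR in the model of all 18 libraries. On those libraries DESeq2 called 13 (1.29% of all genes), voom 6 (0.81%) and edgeR with RIN as a covariate 9 (1.04%). With fewer libraries edgeR called 6 without week 14 (0.754% of genes tested there) and 12 without replicate 1 of week 8 (0.882%). Their summed level was 124, 179 and 206 TPM at week 6 and 338, 1048 and 2424 TPM at week 8. Iigp1, an immunity-related GTPase that attacks the vacuoles of intracellular pathogens, was at 4.96, 7.74 and 5.64 CPM and then 34.0, 195 and 421 CPM (5.15 ± 0.97, edgeR adjusted p = 0.0695). Tgtp1, of the same family, was at 3.00, 4.74 and 4.54 CPM and then 17.6, 187 and 542 CPM (5.92 ± 1.19, adjusted p = 0.0915). Its near copy Tgtp2 was at 3.18, 4.01 and 4.26 CPM and then 11.2, 81.2 and 169 CPM (4.51 ± 0.93, adjusted p = 0.0944), and the division of reads between the pair is uncertain. In 16 of the 17 genes replicate 3 of week 8 was the highest of its age, and in all 17 replicate 1 was the lowest.

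The stretches upstream of the GTPase genes were examined because these genes moved together. RefSeq promoters of GRCm38.p6, taken as the 250 bases before the start, matched 10 of the 17 genes. They were searched on both strands for the gamma-activated site TTCNNNGAA and for GAAANNGAAA, the core of the interferon-stimulated response element. All 10 held the response element core and 6 held a gamma-activated site, against 3.46% and 8.13% of 27025 genes in the table (2.98% and 7.02% of its 32851 promoters). Other lists with known interferon gamma targets held fewer matches: 3 of 16 class I MHC genes held the core and 1 the site, 1 of 8 class II genes held each, and of 3 genes of the CXCR3 axis 1 held the core and none the site. Several of the GTPase genes arose by duplication and share their sequence, so the matches are not independent, and a match of letters is not evidence of binding. In Igtp and Tgtp2, and also in Tgtp1 and Irgm2 of the same list, the sites stand 2 bases apart. In Gbp7 a pair of gamma-activated sites precedes the core on the other strand. Igtp, Tgtp2 and Gbp7 are shown for these arrangements, 5′ to 3′ on the strand of the gene, with matches in capitals. In Igtp the capitals at −83 to −79 mark the letters ACGTG, treated below. Igtp lies at chr11:58199306-58199555 (+), Tgtp2 at chr11:49064213-49064462 (−) and Gbp7 at chr3:142530086-142530335 (+), all GRCm38.p6.
Igtp: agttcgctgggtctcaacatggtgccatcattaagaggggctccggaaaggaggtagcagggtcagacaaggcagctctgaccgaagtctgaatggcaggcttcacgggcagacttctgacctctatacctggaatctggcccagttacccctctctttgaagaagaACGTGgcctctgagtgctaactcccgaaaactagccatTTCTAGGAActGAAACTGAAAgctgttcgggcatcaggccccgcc
Tgtp2: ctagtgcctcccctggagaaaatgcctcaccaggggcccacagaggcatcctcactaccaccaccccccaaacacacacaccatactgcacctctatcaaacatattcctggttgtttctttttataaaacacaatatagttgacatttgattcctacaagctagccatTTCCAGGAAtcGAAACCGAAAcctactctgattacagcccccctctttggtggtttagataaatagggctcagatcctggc
Gbp7: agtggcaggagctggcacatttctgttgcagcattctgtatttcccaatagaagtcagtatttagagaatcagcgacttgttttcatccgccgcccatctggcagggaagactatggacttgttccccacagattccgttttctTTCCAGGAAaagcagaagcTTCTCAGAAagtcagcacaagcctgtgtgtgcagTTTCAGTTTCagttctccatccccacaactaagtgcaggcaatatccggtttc

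In Igtp, which encodes an immunity-related GTPase of the regulatory class, the gamma-activated site spans −45 to −37 and the response element core −34 to −25. This gene was at 7.98, 11.8 and 15.1 CPM at week 6 and 25.8, 196 and 386 CPM at week 8 (4.12 ± 1.01, edgeR adjusted p = 0.159). In Tgtp2 they span −81 to −73 and −70 to −61. In Gbp7, a guanylate-binding protein at 16.9, 19.4 and 21.8 CPM and then 27.7, 71.1 and 128 CPM (1.97 ± 0.55, adjusted p = 0.236), the gamma-activated sites span −106 to −98 and −87 to −79 and the core −53 to −44. Igtp and Gbp7 were picked for their sequence after their values were seen.

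Of the called genes, the table matched 7 of 11, of which 1 held a gamma-activated site, none the response element core, 2 a kappa-B match and 2 the letters ACGTG, the core that hypoxia-inducible factors recognise. The kappa-B pattern searched was GGGRNWYYCC, where R is A or G, W is A or T and Y is C or T. Over all genes in the table, 4.46% held a kappa-B match, 18.5% ACGTG and 8.13% a gamma-activated site. Counts this small were not tested against these shares. Steap4, H2-Q6 and Pfkfb3 are shown because they hold these matches. Gda, the other called gene with ACGTG, holds it at −239 to −235 and is not shown. Steap4 lies at chr5:7960222-7960471 (+), H2-Q6 at chr17:35424600-35424849 (+) and Pfkfb3, at 1 of its starts, at chr2:11502091-11502340 (−), all GRCm38.p6. In Steap4 the capitals mark kappa-B matches at −250 to −241 and −226 to −217 and a gamma-activated site at −116 to −108. In H2-Q6 they mark overlapping kappa-B matches from −173 to −163, and in Pfkfb3 a palindrome from −53 to −48 that holds ACGTG on both strands.
Steap4: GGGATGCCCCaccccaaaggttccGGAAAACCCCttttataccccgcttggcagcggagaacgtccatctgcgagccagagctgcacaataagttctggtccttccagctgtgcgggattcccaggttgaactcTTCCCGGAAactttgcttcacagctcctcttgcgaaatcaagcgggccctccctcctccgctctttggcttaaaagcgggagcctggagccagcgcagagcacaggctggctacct
H2-Q6: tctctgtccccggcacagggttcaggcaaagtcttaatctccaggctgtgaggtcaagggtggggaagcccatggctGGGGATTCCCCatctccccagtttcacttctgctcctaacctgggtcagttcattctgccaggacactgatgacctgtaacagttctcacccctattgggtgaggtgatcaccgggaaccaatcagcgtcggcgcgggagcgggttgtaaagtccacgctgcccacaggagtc
Pfkfb3: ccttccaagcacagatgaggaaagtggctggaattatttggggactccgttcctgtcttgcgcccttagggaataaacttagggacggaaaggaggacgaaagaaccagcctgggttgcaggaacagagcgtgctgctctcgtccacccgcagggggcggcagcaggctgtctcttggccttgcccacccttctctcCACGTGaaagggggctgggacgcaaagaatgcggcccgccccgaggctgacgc

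What raised the GTPases was not tested. Of interferon gamma and its receptor, the ligand was barely measurable. Ifng had 2, 0 and 1 estimated counts at week 6 and 3, 29 and 9 at week 8, a ratio of 14.2 with a 95% exact counting interval of 4.54 to 71.8 that covers counting error only. Replicate 2 gave most of these counts, and without it the ratio was 6.58 (1.77 to 36.3). By edgeR the change of Ifng was 3.63 ± 1.58 (adjusted p = 0.638). Its receptor chains Ifngr1 and Ifngr2 stood at 243, 253 and 242 CPM and then 305, 326 and 319 CPM, and at 149.9, 139 and 160.2 and then 138, 237 and 199 CPM. Neither chain was called (0.36 ± 0.24 and 0.35 ± 0.25, edgeR adjusted p = 0.793 and 0.802). Irf1, a transcription factor that interferon gamma induces, was at 82.7, 92.6 and 91.7 CPM and then 118, 444 and 476 CPM (1.96 ± 0.47, edgeR adjusted p = 0.145), without overlap. Il18bp, a secreted inhibitor of interleukin 18 that interferon gamma induces, had the smallest p of the 20 genes of this axis, at 4.53, 4.24 and 6.27 CPM and then 16.3, 50.03 and 148 CPM (3.83 ± 0.80, adjusted p = 0.104). Of the 20, 9 were higher and none lower at an unadjusted p below 0.05, with a median change of 1.13.

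The chemokine ligands of CXCR3 followed the order of mice seen in the GTPases. Cxcl9 was at 1.84, 4.01 and 2.85 CPM at week 6 and 13.1, 47.6 and 87.1 CPM at week 8, and Cxcl10 at 1.04, 1.93 and 1.63 and then 3.52, 13.8 and 24.1 CPM. Cxcl11 was at 0, 0.569 and 0.219 and then 1.62, 6.996 and 12.95 CPM. In each the ages did not overlap and replicate 3 of week 8 was the highest. The changes were 4.08 ± 1.09, 3.17 ± 1.25 and 4.76 ± 1.60, and none was called (edgeR adjusted p = 0.198, 0.591 and 0.427). The receptor gene Cxcr3, a marker of T helper 1 and cytotoxic T cells, was at 1.47, 0.948 and 1.66 CPM and then 2.44, 4.93 and 1.67 CPM (1.15 ± 0.39, adjusted p = 0.442), with replicate 2 the highest and replicate 3 barely above the highest week 6 mouse.

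Genes that type I interferon induces were also higher in the median (1.36 over 22 genes, all positive). Of these, 6 had an unadjusted p below 0.05 (4.71% of all genes) and 8 showed no overlap (11.1%). Here the reference mattered: against the wild type in place of Il10KO week 6 the median was −0.37. Ifit2, an antiviral protein, was at 11.2, 63.4 and 9.63 CPM in the wild type, 9.70, 10.9 and 13.4 CPM at Il10KO week 6 and 23.8, 86.4 and 172 CPM at week 8 (3.05 ± 0.91 over week 6, edgeR adjusted p = 0.305). Replicate 2 of the wild type stood apart in it. The median of the guanylate-binding and immunity-related GTPases was 3.28 against the wild type, and in 11 of 17 all week 8 libraries lay above all wild-type libraries, against 15.8% of all genes.

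**Figure D4:**
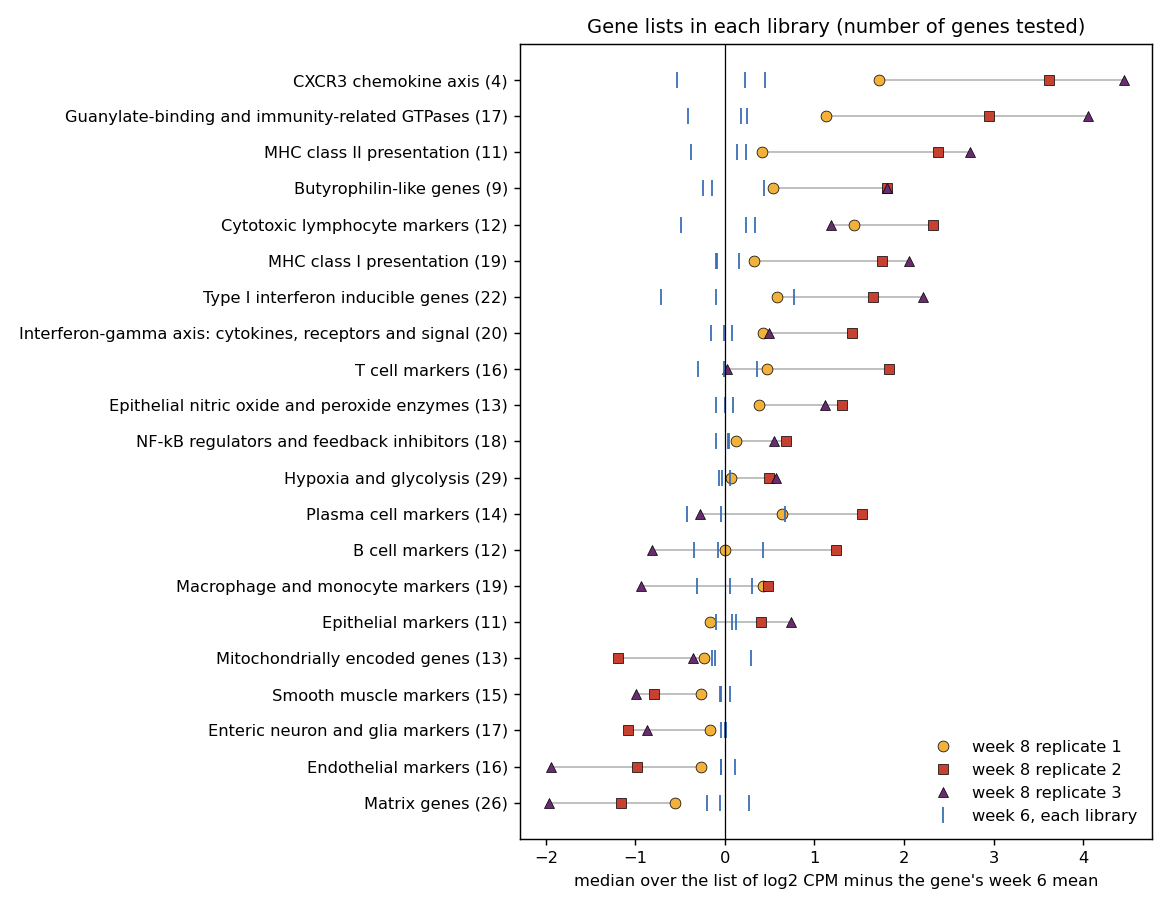
Median over each gene list of the difference between log2 CPM in a library and the gene's mean at Il10KO week 6 (horizontal axis), for the 3 week 8 libraries (symbols) and the 3 week 6 libraries (blue ticks), with the number of tested genes in brackets. The GTPase, CXCR3, type I interferon and MHC lists stand highest in replicates 2 and 3 of week 8. The interferon gamma axis and the T cell, B cell and plasma cell markers stand highest in replicate 2. Matrix, endothelial and smooth muscle lists stand lowest in replicate 3, and enteric neuron and glia markers in replicate 2.

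Lymphocyte markers did not follow the order of the GTPases across the 3 mice. T cell markers had a median difference from week 6 of 0.48, 1.83 and 0.03 in replicates 1, 2 and 3 of week 8, where the GTPases had 1.13, 2.95 and 4.05. The genes of the interferon gamma axis had 0.42, 1.42 and 0.49, and so were highest in replicate 2 as the T cell markers were. Replicate 2 was the highest of its age in 15 of 16 T cell markers and replicate 3 in none. Summed T cell markers were 52.5, 40.9 and 70.1 TPM at week 6 and 84.9, 165 and 53.3 TPM at week 8, and no marker was at 0 in all 3 libraries of an age. Of the 16, 8 were higher at an unadjusted p below 0.05 (4.71% of all genes) and none was called, with a median change of 1.04. Only 2 showed no overlap, a share close to the 11.1% of all genes. Cd8a, the coreceptor of cytotoxic T cells, was at 1.01, 1.11 and 2.22 CPM and then 3.997, 12.7 and 6.96 CPM (2.44 ± 0.55, edgeR adjusted p = 0.122). Cd3e, of the T cell receptor complex, was at 3.46, 2.88 and 5.48 and then 5.20, 11.8 and 6.22 CPM (0.98 ± 0.41, adjusted p = 0.641).

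Genes for the granule proteins of killer lymphocytes kept the ages apart. Gzma, a granule protease, was at 0.245, 0.158 and 0.282 CPM at week 6 and 1.02, 36.4 and 27.3 CPM at week 8, and Gzmb at 0.184, 0.316 and 0.407 and then 0.983, 15.9 and 15.8 CPM. Prf1, which encodes perforin, was at 0.337, 0.316 and 0.501 and then 1.24, 3.31 and 1.33 CPM. None of the 3 overlapped between ages and none was called (6.54 ± 1.35, 5.16 ± 1.30 and 2.34 ± 0.46, edgeR adjusted p = 0.0944, 0.173 and 0.0779). The 12 cytotoxic markers had a median change of 1.58. Of them, 7 had an unadjusted p below 0.05 (4.71% of all genes) and 8 showed no overlap (11.1%). Without replicate 1 of week 8, 3 were called higher (0.882% of genes tested there). B cell markers had a median change of 0.34 with none of 12 past the unadjusted threshold. All 12 were lowest at week 8 in replicate 3, and their sum was 145 to 251 TPM at week 6 and 194, 339 and 82.7 TPM at week 8. How far the number of lymphoid cells in each piece of tissue enters the lymphocyte and interferon values was not tested, and in bulk tissue more cells of a type and more RNA per cell cannot be told apart.

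The enzymes of nitric oxide and peroxide production were positive in all 13 tested genes, with a median change of 1.01. Beside Nos2, the only gene of the list to be called, 5 were higher at an unadjusted p below 0.05. Duox2, the dual oxidase that releases hydrogen peroxide at the epithelial surface, was at 79.1, 90.0 and 85.9 CPM at week 6 and 232, 205 and 416 CPM at week 8, and its maturation factor Duoxa2 at 18.8, 21.6 and 18.6 and then 84.2, 178 and 179 CPM. Their changes of 1.74 ± 0.36 and 2.90 ± 0.53 were not called (edgeR adjusted p = 0.0944 and 0.0668), though in each the 2 ages were well apart. Duoxa1, which pairs with the second dual oxidase, was at 1.56, 2.47 and 2.07 and then 5.68, 8.24 and 14.1 CPM (2.20 ± 0.49, adjusted p = 0.116).

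Among epithelial defence genes, which gave no call, 5 of 20 were higher and 2 lower at an unadjusted p below 0.05. Their median change was 1.01, and 0.03 with cage as a factor. Plet1, a surface protein of regenerating epithelium, was at 2.78, 3.22 and 3.01 CPM at week 6 and 13.8, 445 and 237 CPM at week 8 (6.27 ± 1.38, edgeR adjusted p = 0.114). Pla2g2a, a secreted phospholipase that kills bacteria, was at 10.1, 5.09 and 5.14 CPM and then 26.4, 301 and 129 CPM (4.49 ± 1.08, adjusted p = 0.152). In both, replicate 2 was the highest week 8 mouse and the ages did not overlap. Ang4, an antimicrobial ribonuclease of the gut, was lower, at 2.36, 0.221 and 0.313 CPM and then 0.159, 0.0886 and 0.0370 CPM (−3.27 ± 1.12, adjusted p = 0.442), without overlap. Reg3b had no count at week 6 and 18 over the 3 week 8 libraries, at least 6.25-fold higher when week 6 is set to 3 counts, summed over its libraries.

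Of the 13 genes of regenerative epithelium 3 were higher at an unadjusted p below 0.05 and 4 had a negative change. The list's median change was 0.62, and −0.01 with cage as a factor. Ly6a, known from epithelium in repair and as an interferon target, was at 67.8, 81.7 and 90.2 CPM and then 307, 1292 and 1818 CPM (3.83 ± 0.88, edgeR adjusted p = 0.126). Sprr2h, a cornified envelope protein, had no count at week 6 and 190 at week 8, at least 65.9-fold higher by the same floor of 3 counts.

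Neutrophil markers and chemokines gave no call. Cd177, known as a surface protein of neutrophils, was at 134, 103 and 148 CPM and then 323, 457 and 616 CPM (1.86 ± 0.35, edgeR adjusted p = 0.0695). It was plainly detected at week 6 already, and which cells carried it was not tested, so its rise alone does not speak for neutrophils. Ltf, which encodes lactoferrin, was at 0.795, 0.126 and 0.407 and then 1.36, 23.1 and 33.3 CPM (5.42 ± 1.23, adjusted p = 0.122). Of 14 tested neutrophil markers 2 were higher at an unadjusted p below 0.05 (4.71% of all genes) and 5 showed no overlap (11.1%). Camp, Ngp and Elane were not among the tested genes. The neutrophil chemokine Cxcl1 was at 0.0612, 0.158 and 0.125 CPM and then 1.14, 1.56 and 0.703 CPM (3.27 ± 1.53, adjusted p = 0.698), without overlap and still low beside 68.8, 14.95 and 7.38 CPM at week 10. Tnf was at 0.398, 0.411 and 0.282 CPM and then 1.43, 6.11 and 7.77 CPM (3.79 ± 0.92, adjusted p = 0.153). It was the only 1 of 11 inflammatory cytokines past the unadjusted threshold, 3 had a negative change, and the list's median of 0.77 turned negative with cage as a factor and without replicate 2 of week 8. Il17a had no count at week 6 and 6 counts at week 8, at least 2.08-fold higher against the floor.

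Among uncalled genes with a standard symbol, no overlap and a mean log2 CPM of at least 1 at either age, the 12 higher genes with the smallest p were Prdm1, Sgk2, Duoxa2, Iigp1, Cd177, Hk2, Tnfrsf8, Ptk6, Abca13, Tdpoz8, Tgtp1 and Duox2, with adjusted p of 0.0668 to 0.0944 by edgeR. Prdm1 encodes BLIMP-1, a regulator of plasma cells, T cells and epithelial maturation. It was at 4.93, 3.95 and 4.54 CPM at week 6 and 13.7, 27.1 and 30.0 CPM at week 8 (2.40 ± 0.43). Tnfrsf8 encodes CD30, a receptor of activated lymphocytes, and was at 0.520, 0.190 and 0.188 and then 1.46, 24.4 and 11.6 CPM (5.36 ± 1.02). Ptk6, a kinase of differentiating gut epithelium, was at 10.0, 9.17 and 9.40 and then 26.1, 43.3 and 39.6 CPM (1.93 ± 0.37). That these 3 kept the ages apart in all libraries follows from the rule by which they were chosen.

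By edgeR's test on the 18 libraries no gene fell, where DESeq2 called 32 lower and voom 34. The lower genes with the smallest p and no overlap were Fndc5, Qpct, Iyd, Tsc22d1, Nrep, Amt, Socs2, Car1, Eci3, Etv4, Alas2 and Maged2, with edgeR adjusted p of 0.0749 to 0.196. Fndc5, the precursor of irisin, was at 6.45, 6.70 and 7.42 CPM at week 6 and 0.920, 1.39 and 0.518 CPM at week 8 (−2.85 ± 0.55, adjusted p = 0.0749). Car1, a carbonic anhydrase of mature colonocytes, was at 1192, 1123 and 907 CPM and then 396, 264 and 219 CPM (−1.87 ± 0.48, adjusted p = 0.18). Its week 10 values were lower again at 102, 92.1 and 69.7 CPM. Iyd, which recycles iodide from iodotyrosines, was at 12.6, 13.8 and 12.2 CPM and then 6.38, 5.08 and 4.92 CPM (−1.24 ± 0.27, adjusted p = 0.114). Socs2, an inhibitor of growth hormone signalling, was at 25.2, 33.1 and 30.3 and then 19.1, 12.8 and 10.3 CPM (−1.07 ± 0.27, adjusted p = 0.175).

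Lists of genes from the tissue beneath the epithelium had negative medians at week 8 and no call by edgeR. All 26 matrix genes had a negative change, 5 with an unadjusted p below 0.05 (2.32% of all genes) and 18 without overlap (12.8% of all genes), with a median of −1.04. Sparc, a collagen-binding matrix protein, was at 759, 514 and 548 CPM at week 6 and 329, 349.6 and 130.1 CPM at week 8 (−1.17 ± 0.33, edgeR adjusted p = 0.237). The 15 smooth muscle markers were also all negative with a median of −0.65, 13 without overlap and none past the unadjusted threshold. Acta2, smooth muscle actin, was at 1717, 1732 and 1504 CPM and then 1405, 787 and 722 CPM (−0.77 ± 0.46, adjusted p = 0.786). Endothelial markers had a median of −0.93 over 16 genes, 15 of them negative and 4 past the unadjusted threshold, and markers of enteric neurons and glia −0.67 over 17, with 1 past it.

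The marker sums of the 3 week 8 mice differed along with these values. Summed matrix genes were 1997 to 2946 TPM at week 6 and 2027, 1103 and 538 TPM at week 8, and smooth muscle markers 7914 to 9411 TPM and then 7809, 5320 and 3756 TPM. By these sums replicate 1 stood within or just under the week 6 range, but gene by gene it lay below all week 6 libraries in 18 of 26 matrix genes and 14 of 15 smooth muscle markers. Summed epithelial markers ran the other way within week 8, at 14984, 19097 and 22614 TPM. Replicate 3 was the lowest of week 8 in 25 of 26 matrix genes and the highest in 9 of 11 epithelial markers. With cage as a factor the median change of matrix genes was 0.004 and that of smooth muscle markers 0.04. That fit left out the wild type, and replicate 3 of week 8, the only mouse of cage D, could not inform these changes. The depth of wall taken in each biopsy is not given by the labels, and its part in these values was not tested.

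The week 10 libraries, which enter this comparison only through the shared model, give the next levels of the called genes. Mean CPM was higher at week 10 than at week 8 in 10 of the 11 (48.8% of all genes), and in 6 all week 10 libraries lay above all week 8 libraries (12.5% of all genes). Only Pfkfb3 differed by edgeR's test between these ages, at 112, 73.9 and 84.3 CPM at week 10 (1.57 ± 0.27, adjusted p = 0.0262), where 0.196% of all genes were called in either direction. Nos2 stood at 373, 554 and 659 CPM at week 10 and was not called (2.73 ± 0.72, adjusted p = 0.0992). Ido1, at 372, 338 and 379.8 CPM at week 10, stood below replicate 3 of week 8 and above the other two (1.05 ± 0.94, adjusted p = 0.493). All 17 GTPases had a higher mean at week 10 than at week 8, and in 4 the ages did not overlap, against the same backgrounds of 48.8% and 12.5%.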

How the data were processed

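Polyadenylated RNA of distal colon biopsies was sequenced from 18 mice. The authors quantified transcripts with kallisto on mm10 after FastQC, per the submitters' processing notes; versions and annotation release are not given in the sources used here. The deposited gene table holds estimated counts (expected counts), rounded, for 16321 genes whose sum over the libraries is at least 50; 91.2% of its values lay within 1 count of the sum of the deposited transcript estimates, over 16086 genes matched by symbol. TPM were deposited by the authors for the same genes and, per the file headers, for each transcript. Of the transcripts, 97.8% matched GENCODE M21.

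Counts were normalised with TMM, filtered by filterByExpr (16300 genes kept) and tested with the quasi-likelihood F-test of edgeR 4.0.16 in 1 fit of 6 group means over 18 libraries, two-sided, with Benjamini-Hochberg adjustment. The common biological coefficient of variation was 0.394, and 0.278 in the 6 libraries alone. Each SE was obtained from the F statistic, as the unshrunken log2 change over the root of F. Log2 CPM used a prior count of 2. A group at 0 was set to 3 counts, and such floors and the 95% intervals cover counting error only. Members, lists (47, with 720 tested genes) and tests were chosen with earlier results of these data known, so no list is independent support. Named are every called gene; the 12 smallest p per direction among uncalled genes without overlap and with a mean log2 CPM of at least 1 in a group; called members and up to 4 smallest p of each list described, with its defining ligand or receptor; Il10, Lcn2 and Ifng; and isoforms of called genes at a mean of at least 0.5 TPM. Chosen after values were seen: Igtp, Gbp7, Erap1, Reg3b, Il17a, the ratio to epithelial markers, the Ifng ratio without single libraries and the GTPase counts by other tools. Replicates carry their own cage and RIN labels and were taken as separate mice, so p-values measure the spread between these samples. Steps were tested on simulated data. Alternatives used DESeq2 1.42.0 and limma 3.58.1 under R 4.3.3; SciPy 1.17.1 gave the permutation test.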

Additional observations from a re-analysis of the deposited data

How the results depend on the processing

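All 11 called genes kept a positive change under each of 21 alternatives, and how many were called depended on the setting. The 11 higher and 0 lower genes became 201 and 32 with DESeq2, 132 and 34 with voom and weights by group, 169 and 24 with RIN as a covariate, 122 and 12 without the week 14 libraries, 75 and 3 with the wild type as the reference, 30 and 4 with limma on log2(TPM + 1), 34 and 1 with limma on log2(TPM + 0.1), and 17 and 0 with library size only. With the 15 Il10KO libraries alone 1 gene was higher; with the 6 libraries alone and with cage as a factor none was, where 2495 and 194 genes had an unadjusted p below 0.05. Leaving out 1 library gave 0 to 144 higher and 0 to 20 lower genes, the highest numbers without replicate 1 of week 8. Genes without overlap then ranged from 2246 to 4189 higher and from 2518 to 3982 lower. With all 6 libraries they were 1809 and 2085. Leaving out a library can only keep or raise such a count, so this rise was fixed in advance. The lipocalin difference ranged from 101 to 118 ng/g. Of the 11 genes, 3 differed between weeks 10 and 8 without the week 14 libraries, against 1 with them.

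Of 231 values of the called genes under alternatives, 129 stayed past the threshold and 102 did not, and of 943 values of 45 other named genes, 208 passed it. None of these values reversed, but other genes named above, Sparc and Acta2 among them, were not included. Some list medians did change sign while others did not. Among the former were type I interferon genes against the wild type (−0.37) and smooth muscle markers with cage as a factor (0.04). The cause of these shifts was not tested. With the replicate number as a block 3 genes were higher and 0 lower. Deviations of same-numbered libraries of weeks 6 and 8 correlated at 0.17, −0.25 and 0.07, and the numbers share only a label. Genes with few counts, Ifng and Il10 among them, are limited by depth.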
